A study of Arabidopsis thaliana with 23 samples.

Results

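The auxin indole-3-acetic acid (IAA) was given to Arabidopsis seedlings together with PEO-IAA, an IAA derivative that blocks the TIR1/AFB auxin receptors, and the transcripts were compared with those of seedlings given PEO-IAA alone. The comparison used 6 of the 23 arrays of the series, chosen by their titles: the 3 arrays of PEO-IAA+IAA (10 µM PEO-IAA and 1 µM IAA) and the 3 arrays of PEO-IAA (10 µM). Arrays with the same replicate number, 1 to 3, were taken as pairs. All samples were whole seedlings of the wild-type ecotype Col-0, treated for 3 h in shaken liquid medium, so roots and shoots were measured together. Per the series' design text, they had first grown on agar for 6 or 7 days and in liquid for 1 day. The groups set beside this comparison were 1 µM IAA alone (3 arrays) and its mock (3 arrays), and PPBo+IAA (10 µM PPBo and, as labelled, 1 µM IAA, 2 arrays) and PPBo (10 µM, 2 arrays). PPBo inhibits the YUCCA enzymes that make IAA. By its title, the series sought auxin-responsive genes with the help of auxin inhibitors.

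Auxin acts by bringing TIR1/AFB receptors and Aux/IAA repressors together, which leads to the breakdown of the repressors and frees auxin response factors to start transcription. The first genes to respond encode Aux/IAA repressors themselves, GH3 enzymes that join IAA to amino acids, LOB-domain and homeodomain factors, and proteins of the cell wall. PEO-IAA and IAA compete for the same receptor pocket, so the comparison asks which genes still responded when IAA was added in the presence of the antagonist.

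Each array gave 1 MAS5 signal, a linear intensity, for each probe set. The 6 arrays had 3′ to 5′ GAPDH signal ratios, a measure of RNA integrity, of 1.68 to 2.05. The third 1 µM IAA array stood apart, with a ratio of 24.4 against 1.19 to 2.05 on the other 22 arrays, and with a median rank correlation with the other arrays of 0.931, against 0.972 to 0.977 for the 6 arrays. It is no part of the comparison, but it entered the shared estimate of the spread, so the main counts are given with and without it. Whether arrays of a group stem from independent cultures is not stated in the labels. P-values thus weigh differences against the spread within groups among the 23 fitted arrays alone, and part of it may be technical. The defining shoot transcripts tested (RCA, LHCB4.1, LHCB4.2 and LHCB4.3) summed to 27591.8 to 32955.9 in PEO-IAA+IAA arrays and 33275.2 to 34944.8 in PEO-IAA arrays, and none was at 0. PYK10, a transcript of roots, had signals of 12826.4 to 14414.1 in PEO-IAA+IAA arrays and 14272.7 to 17407.1 in PEO-IAA arrays. Neither the 4 shoot markers (median log2 fold change -0.16) nor PYK10 (-0.21 ± 0.14) passed the limma test or had an unadjusted p below 0.05, although the summed shoot markers did not overlap between the groups. The part of this shift in the results below was not tested.

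Adding IAA beside PEO-IAA raised the signals of some probe sets, early auxin genes led by GH3.3 among them, and lowered those of a like number of others. Of 15922 probe sets tested, 275 were called at an adjusted p below 0.05, which is 1.73%. Of these, 130 were higher in PEO-IAA+IAA (0.816% of those tested) and 145 lower (0.911%). Which direction held more calls was not stable: it was 58 higher and 39 lower with the 6 arrays alone and the pairing ignored, 109 and 89 without PEO-IAA+IAA replicate 3, and 77 and 68 without PEO-IAA replicate 1. Without the third 1 µM IAA array, which lies outside the comparison, 552 were called. The median log2 fold change was 1.18 for those called higher and -0.98 for those called lower, against 0.00 for all tested. The called range ran from -3.61 to 7.39, and 75 rose by more than 1 and 69 fell by more than 1 on the log2 scale. All 3 pairs had the same direction for each of the 275, as they had for 33.4% of all probe sets tested. The PEO-IAA+IAA and PEO-IAA arrays did not overlap for 265 of the 275, against 11.7% of all tested. The calls were selected on these same arrays, so both counts describe them and give no separate support. Of the 275, 123 named 1 gene, 5 named several and 147 were unnamed here, so the named genes below show only a share of the calls.

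**Figure D1:**
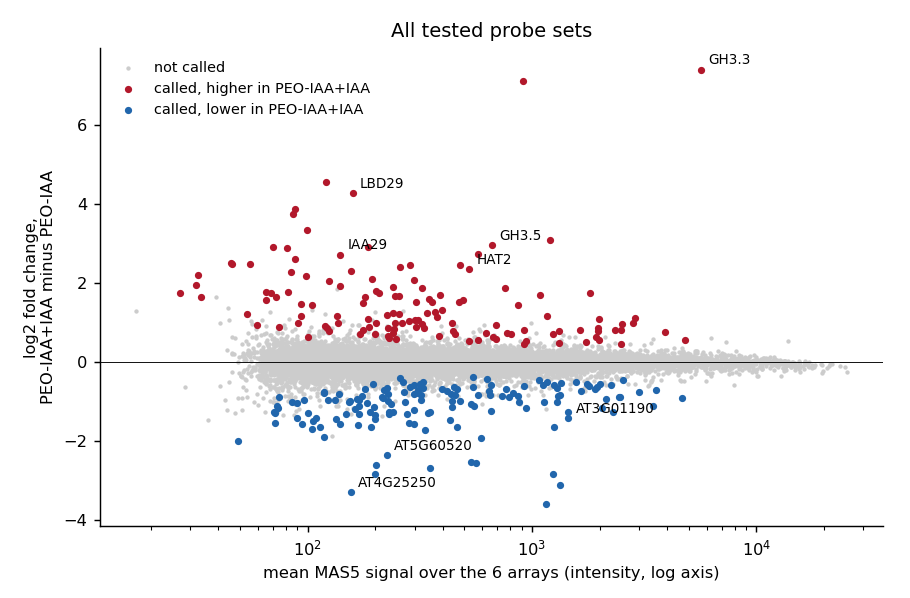
Log2 fold change of PEO-IAA+IAA over PEO-IAA (vertical axis) against the mean MAS5 signal over the 6 arrays (horizontal axis, log scale) for all 15922 tested probe sets; red points are called higher (130) and blue points called lower (145) in PEO-IAA+IAA. GH3.3, at 7.39, lies above all other points, and the calls are spread over nearly the whole range of signals.

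Most of the early auxin-induced genes that could be tested rose. Of 23 loci listed, 8 had a tested probe set of 1 gene, and 7 of these 8 were called higher and none lower, against 0.816% of all tested. Their median log2 fold change was 2.52, against 0.00 for all tested. The list was known to respond in earlier work on these arrays, so its count is a description.

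GH3.3, which encodes an enzyme that joins IAA to amino acids, had the largest change. Its signals were 10349.9, 10678.7 and 12902.0 in PEO-IAA+IAA arrays, against 34.5, 59.5 and 100 in PEO-IAA arrays. The groups lay far apart, and the gene was bright in every PEO-IAA+IAA array and dim in every PEO-IAA array. The fold change was 167 on the log2(signal + 7.56) scale, a log2 change of 7.39 ± 0.30 (SE, n = 3 pairs, limma adjusted p = 1.13e-09). GH3.5 (named WES1 in the gene table, AT4G27260), another enzyme of that family, had signals of 1487.8, 1089.9 and 947 in PEO-IAA+IAA arrays, against 127, 113 and 203 in PEO-IAA arrays. Its log2 fold change was 2.95 ± 0.30 (adjusted p = 2.8e-05), with no overlap between the groups. GH3.1 was dim, with signals of 61.8, 34 and 64.7 in PEO-IAA+IAA arrays and 22.5, 3.84 and 3.49 in PEO-IAA arrays. Its groups did not overlap either, and it rose by 1.93 ± 0.34 (adjusted p = 0.00561). PEO-IAA replicates 2 and 3 lay below the added 7.56, so the size of the rise depends on that value. Over the alternatives run the rise was 1.07 to 2.55. The call of GH3.1 ended without PEO-IAA replicate 2 (adjusted p = 0.0509) and with the 6 arrays alone and the pairing ignored (0.184).

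Among the transcription factors, LBD29, a LOB-domain factor of lateral root initiation, had signals of 440, 198 and 283 in PEO-IAA+IAA arrays, against 3.02, 23.4 and 3.74 in PEO-IAA arrays. It was thus near the floor in all 3 PEO-IAA arrays, and its log2 fold change of 4.27 ± 0.47 (adjusted p = 7.06e-05) depends on the value added before taking logs. LBD16, which acts in the same step of lateral root formation, had signals of 185, 94.3 and 135 in PEO-IAA+IAA arrays and 83.1, 29.4 and 31.6 in PEO-IAA arrays. The highest PEO-IAA array stayed just below the lowest PEO-IAA+IAA array, and both came from different pairs. LBD16 rose by 1.47 ± 0.25 (adjusted p = 0.00328), a call that was lost with the 6 arrays alone and the pairing ignored (0.21). HAT2, a homeodomain-leucine zipper factor, had the tightest values of the group, with 905, 891 and 840 in PEO-IAA+IAA arrays and 142, 196 and 169 in PEO-IAA arrays. It rose 5.05-fold (log2 2.34 ± 0.16, adjusted p = 3.04e-07).

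Of the Aux/IAA repressors, 3 were tested, and 1 was called higher and none lower, against 0.816% and 0.911% of all tested, with a median log2 fold change of 0.82. IAA29 had signals of 302, 207 and 232 in PEO-IAA+IAA arrays, against 22.9, 26.5 and 47.4 in PEO-IAA arrays, with wide space between the groups. It rose 6.53-fold (log2 2.71 ± 0.25, adjusted p = 1.27e-05). IAA30 had signals of 74, 69.1 and 88.7 in PEO-IAA+IAA arrays and 36.4, 45.3 and 39.6 in PEO-IAA arrays. These values did not overlap, but with 0.82 ± 0.22 IAA30 missed the threshold (adjusted p = 0.0891), and it passed without the third 1 µM IAA array (0.0275). IAA18 had signals of 646 to 723 in PEO-IAA+IAA arrays and 514 to 540 in PEO-IAA arrays, and its difference of 0.37 ± 0.20 had an adjusted p of 0.744 (0.0421 without the third 1 µM IAA array).

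**Figure D2:**
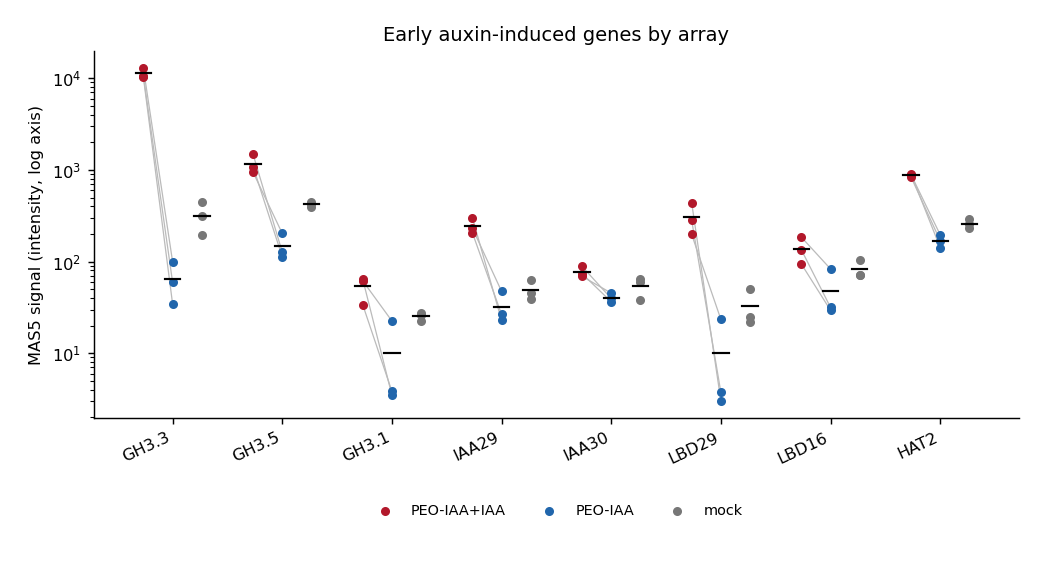
MAS5 signal (intensity, log axis) of the 8 tested early auxin-induced genes by array, in PEO-IAA+IAA (red), PEO-IAA (blue) and mock (grey); horizontal bars are means of 3 arrays and thin lines join the arrays of 1 replicate number. In all 8 genes every red point lies above the blue point of its pair, and GH3.3 reaches 12902.0 in PEO-IAA+IAA.

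The rise was not shared by all genes of auxin metabolism. Of 8 tested members of the list of auxin conjugation and oxidation, GH3.3, GH3.5 and GH3.1 were called higher, against 0.816% of all tested, and none lower. The median of the 8 was 0.19. GH3.17 had signals of 240, 370 and 311 in PEO-IAA+IAA arrays and 255, 424 and 374 in PEO-IAA arrays. Its groups overlapped (log2 -0.18 ± 0.26, adjusted p = 1). GH3.9 was at 0.23 ± 0.23, also with an adjusted p of 1. UGT74D1, a glucosyltransferase that acts on auxins, was at -0.03 ± 0.18. The remaining members were AT1G14120 (-1.13 ± 0.34, adjusted p = 0.168) and AT1G14130 (0.15 ± 0.18). AT1G14120 had its highest signal, 1265.9, in PEO-IAA replicate 1, and it passed the test without the third 1 µM IAA array (0.00145). WAG2, a kinase that directs PIN auxin carriers, was the 1 tested member of the transport list. It had signals of 196, 263 and 189 in PEO-IAA+IAA arrays and 55.3, 158 and 146 in PEO-IAA arrays. The groups did not overlap, but WAG2 missed the threshold at 0.92 ± 0.26 (adjusted p = 0.113). It passed without the third 1 µM IAA array (0.0478) and with array weights (0.0138). YUC2, an enzyme of IAA synthesis, had a difference of -0.09 ± 0.15, and AT2G04400, the other tested member of the synthesis list, had 0.05 ± 0.20. No tested probe set of a single gene was found for auxin receptors and response factors, for the SAUR family or for ethylene synthesis, so these were not analysed here.

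Expansins, which loosen the cell wall, rose in part. Of 11 tested expansins, 4 were called higher and none lower, against 0.816% and 0.911% of all tested, with a median log2 fold change of 0.37. EXPA8 had signals of 445, 427 and 273 in PEO-IAA+IAA arrays, against 199, 201 and 147 in PEO-IAA arrays, so the groups were apart. It rose 2.03-fold (log2 1.02 ± 0.22, adjusted p = 0.0258). EXPA4 had signals of 1856.2, 1421.2 and 1341.1 in PEO-IAA+IAA arrays and 1046.6, 880 and 883 in PEO-IAA arrays, a rise of 0.70 ± 0.17 (adjusted p = 0.0409). These were the least firm of the group: EXPA4 lost its call without any 1 of the 6 arrays (adjusted p up to 0.258) and with the pairing ignored (0.184), and EXPA8 without any of 5 of them, PEO-IAA+IAA replicate 3 being the exception (up to 0.178). The other called expansins were EXPA7 and EXPA18. Among those not called, EXPB1 was lower in all PEO-IAA+IAA arrays than in any PEO-IAA array (log2 -0.75 ± 0.21, adjusted p = 0.0966, and 0.0478 without the third 1 µM IAA array), while EXPA15 was at 0.03 ± 0.13. None of 6 tested xyloglucan endotransglucosylases was called by limma (median 0.16), and 1 had an unadjusted p below 0.05. That gene was XTH19, with 434, 438 and 432 in PEO-IAA+IAA arrays and 296, 251 and 288 in PEO-IAA arrays, at 0.63 ± 0.16 (adjusted p = 0.0623, and 0.0134 without the third 1 µM IAA array).

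EXPA7 and EXPA18 are expressed in root hair cells, and both are the tested members of the root hair list of 16 loci. EXPA7 had signals of 131, 127 and 51.2 in PEO-IAA+IAA arrays, against 47, 30.6 and 5.89 in PEO-IAA arrays. The third array was lowest in both groups, so the gap between the groups was small and the change within each pair large. EXPA7 rose by 1.76 ± 0.35 (adjusted p = 0.0145). EXPA18 had signals of 261, 190 and 122 in PEO-IAA+IAA arrays, against 93.5, 85.9 and 56.3 in PEO-IAA arrays, and again the third pair was lowest. It rose 2.25-fold (log2 1.17 ± 0.21, adjusted p = 0.00522). The summed signal of both was 173 to 391 in PEO-IAA+IAA arrays and 62.2 to 141 in PEO-IAA arrays. In these bulk samples fewer root hair cells and less of the transcript in each of them cannot be told apart. The call of EXPA18 ended without PEO-IAA+IAA replicate 1 (adjusted p = 0.0557), and that of EXPA7 without PEO-IAA+IAA replicate 1 (0.0999) or 2 (0.103) or PEO-IAA replicate 3 (0.0881). With the 6 arrays alone and the pairing ignored, neither passed (0.359 for EXPA7 and 0.181 for EXPA18).

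Besides GH3.3, GH3.5, HAT2 and EXPA8, the 15 named genes with the largest rise held 11 others, of which most carry only a locus code in the gene table. AT5G62280 had signals of 1069.3, 1016.1 and 904 in PEO-IAA+IAA arrays, against 98.2, 158 and 192 in PEO-IAA arrays. It rose 6.6-fold (log2 2.72 ± 0.27, adjusted p = 2.8e-05), close to GH3.5 in size. AT5G12050 had signals of 1595.7, 1162.6 and 841 in PEO-IAA+IAA arrays, against 323, 379 and 255 in PEO-IAA arrays. Its rise of 1.86 ± 0.16 had the smallest adjusted p after GH3.3 and HAT2 among these 15 genes (5.35e-06). AT1G62770 rose by 1.66 ± 0.22, with signals of 417, 392 and 368 in PEO-IAA+IAA arrays and 112, 105 and 142 in PEO-IAA arrays. In each of these 3 genes the lowest PEO-IAA+IAA array stood far above the highest PEO-IAA array.

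MYBC1, a MYB-related transcription factor, was the other riser of the 15 with a symbol. Its signals were 384, 473 and 369 in PEO-IAA+IAA arrays and 209, 183 and 181 in PEO-IAA arrays. MYBC1 rose by 1.06 ± 0.23 (adjusted p = 0.0233), and the call was lost without any of 5 of the 6 arrays, PEO-IAA replicate 3 being the exception (adjusted p up to 0.165), and with quantile normalization (0.0647). The remaining risers, AT2G19970, AT3G50340, AT1G03820, AT4G32460, AT5G57785, AT3G51670 and AT5G51830, had log2 fold changes of 0.78 to 1.59. AT3G50340, AT1G03820 and AT4G32460 kept their calls whichever of the 6 arrays was left out. AT2G19970 (adjusted p up to 0.239) and AT3G51670 (up to 0.153) lost theirs without any 1 of them, and AT2G19970 also with the pairing ignored (0.0986). AT5G51830 (up to 0.109) lost it without PEO-IAA+IAA replicate 1 or 3 or PEO-IAA replicate 1 or 2. AT5G57785 (up to 0.104) lost it without PEO-IAA+IAA replicate 1 or 2 or PEO-IAA replicate 2 or 3.

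The genes that fell included a glucosinolate enzyme and a lectin among many loci without a symbol. BCAT4, an aminotransferase at the start of methionine-derived glucosinolate synthesis, had signals of 2011.0, 1564.8 and 1507.8 in PEO-IAA+IAA arrays, against 4324.3, 2562.8 and 2693.7 in PEO-IAA arrays. PEO-IAA replicate 1 was well above the other PEO-IAA arrays, but every PEO-IAA+IAA array lay below all of them. BCAT4 fell by 0.88 on the log2 scale (SE 0.14, adjusted p = 0.00245). JAL33, a jacalin-related lectin, had signals of 1743.7, 1634.0 and 1771.1 in PEO-IAA+IAA arrays, against 4231.0, 2624.3 and 2834.8 in PEO-IAA arrays. It also fell by 0.88 (SE 0.17, adjusted p = 0.0134), with the same high first PEO-IAA array. The call of JAL33 ended without PEO-IAA+IAA replicate 1 or 2 or PEO-IAA replicate 1 or 3 (adjusted p up to 0.131).

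AT5G60520 fell most among the genes named by size. Its signals were 52.2, 89.3 and 64.1 in PEO-IAA+IAA arrays, against 379, 465 and 301 in PEO-IAA arrays, with no overlap and a wide gap. The log2 fold change was -2.36 ± 0.17 (adjusted p = 9.51e-07), the smallest adjusted p of the 15 named fallers. AT4G11190 had signals of 315, 234 and 174 in PEO-IAA+IAA arrays, against 1332.1, 835 and 681 in PEO-IAA arrays, a log2 change of -1.93 ± 0.27. AT3G45680 had signals of 145, 147 and 140 in PEO-IAA+IAA arrays, against 559, 357 and 443 in PEO-IAA arrays, a log2 change of -1.58 ± 0.23. The treated values of AT3G45680 were nearly equal, so its spread came from the PEO-IAA arrays. AT3G01190 was bright in both groups, with signals of 998, 744 and 619 in PEO-IAA+IAA arrays, against 2419.0, 2289.7 and 1651.6 in PEO-IAA arrays. It fell by 1.43 (SE 0.32, adjusted p = 0.0306), a call that was lost without any 1 of the 6 arrays (adjusted p up to 0.205) and became firmer without the third 1 µM IAA array (4.28e-06).

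Next to each other on chromosome 4, with 0 genes between them in the gene table, AT4G30450 and AT4G30460 fell together. AT4G30450 had signals of 591, 667 and 475 in PEO-IAA+IAA arrays and 1387.2, 1338.0 and 1187.8 in PEO-IAA arrays (log2 -1.17 ± 0.14, adjusted p = 0.000225). AT4G30460 had signals of 256, 315 and 297 in PEO-IAA+IAA arrays and 655, 524 and 581 in PEO-IAA arrays (0.5 times the PEO-IAA level in the fit, adjusted p = 0.0008). In both genes the groups were apart and no array was out of line with its group. AT5G37990 and AT5G38020, with 4 genes between them on chromosome 5, fell by 1.24 (SE 0.29) and by 1.12 (SE 0.15). AT5G38020 kept its call whichever of the 6 arrays was left out, while AT5G37990 lost it without any but PEO-IAA+IAA replicate 2 (adjusted p up to 0.249) and with the pairing ignored (0.292). The other named fallers, AT3G62040, AT5G62360, AT5G59490, AT4G15390 and AT5G02230, had log2 fold changes of -1.47 to -0.96. Of these, AT5G62360 lost its call without any array but PEO-IAA+IAA replicate 3 (up to 0.247) and with the pairing ignored (0.299), and AT4G15390 without PEO-IAA+IAA replicate 3 (0.0678) or PEO-IAA replicate 1 (0.0874).

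**Figure D3:**
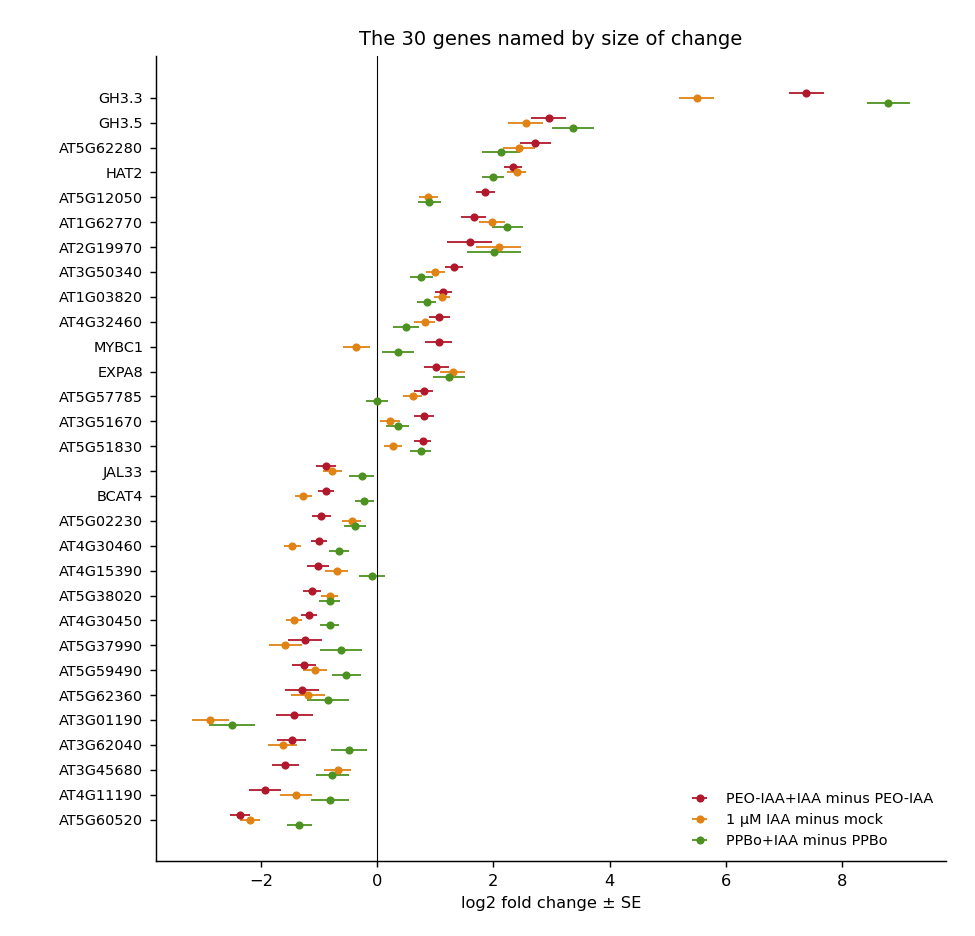
Log2 fold change with its SE for the 30 genes named by size of change, as PEO-IAA+IAA minus PEO-IAA (red), 1 µM IAA minus mock (orange) and PPBo+IAA minus PPBo (green). From AT5G60520 at -2.36 to GH3.3 at 7.39 the red points fall into 15 above and 15 below 0. MYBC1 is the riser whose orange point lies below 0, in a fit that holds the third 1 µM IAA array. Without that array its responses beside PEO-IAA and to IAA alone differed by 0.97, less than its rise of 1.06. Its value with IAA alone was then not below 0.

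Families of enzymes that modify foreign compounds held 1 called gene. With 1.73% of all tested probe sets called, so low a count does not set these families apart. Of 9 tested tau-class glutathione transferases, 8 had a value below 0 and 3 had an unadjusted p below 0.05 by limma, with a median of -0.30. Among the 9, 1 was called lower and none higher. That gene, GSTU26, had signals of 104, 180 and 166 in PEO-IAA+IAA arrays and 361, 326 and 267 in PEO-IAA arrays. It fell by 1.07 (SE 0.21, adjusted p = 0.0106), a call that ended without PEO-IAA+IAA replicate 1 (0.0909) or PEO-IAA replicate 1 (0.108). GSTU25 had signals of 1072.2, 1060.6 and 3272.1 in PEO-IAA+IAA arrays and 1337.7, 1608.9 and 3570.7 in PEO-IAA arrays. The pair of replicate 3 was far above the others in both groups, and the difference of -0.35 ± 0.48 had an adjusted p of 1. None of 34 tested UDP-glycosyltransferases was called by limma (median -0.03), and 6 had an unadjusted p below 0.05. Of all 15922 tested probe sets, 1288 had an unadjusted p below 0.05. The list of cytochromes P450 was drawn by CYP symbols and also held CYP71 and CYP59, which are cyclophilins. Of its 15 tested genes (median -0.11) none was called and none had an unadjusted p below 0.05. The response regulator RR16 of the cytokinin list was at -0.37 ± 0.17 (adjusted p = 0.59). Of 5 reference genes none was called or had an unadjusted p below 0.05, and their median was 0.01.

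Just inside the threshold lay AT5G01740, with a log2 fold change of 0.62 and an adjusted p of 0.0497. Just outside lay AT2G39040, with -1.47 and 0.0511.

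Mock arrays placed these changes on a common scale. The comparisons with mock share the PEO-IAA+IAA or the PEO-IAA arrays with the one above, so their values are given side by side and not as separate evidence. Of the 130 probe sets called higher in PEO-IAA+IAA than in PEO-IAA, 44 were also called above mock in PEO-IAA+IAA, 2 below and 84 not called. Of all tested, 0.766% were called above mock in PEO-IAA+IAA and 0.879% below, 1.65% in all. In PEO-IAA arrays, 36 of the 130 were called below mock, 2 above and 92 not called, against 0.383% below and 0.565% above, 0.948% in all, of those tested. Of the 145 called lower, 77 were called below mock in PEO-IAA+IAA and none above, and 12 were called above mock in PEO-IAA and none below. The fit behind these counts held the third 1 µM IAA array, and they were not drawn without it. Without that array, further listed genes passed in PEO-IAA against mock, such as AT3G50340 (log2 -0.55, limma adjusted p = 0.0345) and AT3G01190 (0.81, 0.00262).

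Single genes showed the different positions against mock. GH3.3 had mock signals of 194, 313 and 443, between the groups: it was 5.19 ± 0.30 above mock in PEO-IAA+IAA (adjusted p = 2.36e-07) and -2.19 ± 0.30 from mock in PEO-IAA (0.00107). HAT2 had mock signals of 255, 291 and 234, and was 1.73 above mock in PEO-IAA+IAA (adjusted p = 2.82e-05). In PEO-IAA it was -0.60 from mock (0.109, and 0.0454 without the third 1 µM IAA array). AT5G60520 was near mock in PEO-IAA (0.23, adjusted p = 0.979) and -2.14 from mock in PEO-IAA+IAA (8.21e-06). EXPA18 stood the other way round: PEO-IAA arrays were -1.71 ± 0.21 from mock (adjusted p = 0.000326), and PEO-IAA+IAA arrays were -0.54 ± 0.21 from mock, which did not pass (0.368). AT4G30460 was 0.91 above mock in PEO-IAA (adjusted p = 0.00249) and -0.09 from mock in PEO-IAA+IAA (1). Some of the calls thus separated PEO-IAA+IAA from mock and others separated PEO-IAA from mock.

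The response to IAA beside PEO-IAA was set against the response to 1 µM IAA alone, which shares no array with it. With IAA alone 930 probe sets were called, 5.84% of those tested (2.36% higher and 3.48% lower), and 1775 without the third IAA array. Of the 130 called higher beside PEO-IAA, 83 were also called higher with IAA alone (63.8% of the 130, and 22.1% of the probe sets called higher with IAA alone). A further 4 were called in the other direction. Of the 145 called lower, 98 were also called lower with IAA alone (67.6% of the 145, and 17.7% of those called lower with IAA alone), and 1 was called in the other direction. Without the third IAA array these overlaps were 92 probe sets higher (70.8% of the 130, but 11.2% of the 823 then called higher with IAA alone) and 112 lower (77.2% of the 145, but 11.8% of 952). The same sign was found for 112 of the 130 and 144 of the 145, against 55.1% of all tested. Over all tested probe sets the Pearson correlation of both log2 fold changes was 0.43, and 0.46 without the third IAA array. The points are probe sets of the same arrays and are not independent.

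Where the size of the response was tested directly, 24 probe sets differed, which is 0.151% of those tested. Of these, 20 had a higher value beside PEO-IAA and 4 a lower one. Without the third IAA array, 228 differed, 128 with a higher and 100 with a lower value beside PEO-IAA. Named genes with a lower value were then among them, such as AT2G19970 (-1.27, adjusted p = 0.0154) and GH3.17 (-1.16, 0.0138). Of the 20 found with all arrays, 12 were called higher beside PEO-IAA while their value with IAA alone was below 0. In 1 both values were above 0. A further 6 were not called beside PEO-IAA and 1 was called lower. No difference was called for the early auxin-induced genes. It was 1.89 ± 0.43 for GH3.3 (adjusted p = 0.135), 0.39 ± 0.42 for GH3.5 (0.734), -0.54 ± 0.35 for IAA29 (0.56), 0.07 ± 0.66 for LBD29 (0.974) and -0.06 ± 0.22 for HAT2 (0.929). For GH3.3 the difference passed with a pseudocount 4 times as large (adjusted p = 0.0367) or without IAA replicate 1 (0.0499). A difference that misses the threshold does not show equal responses.

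**Figure D4:**
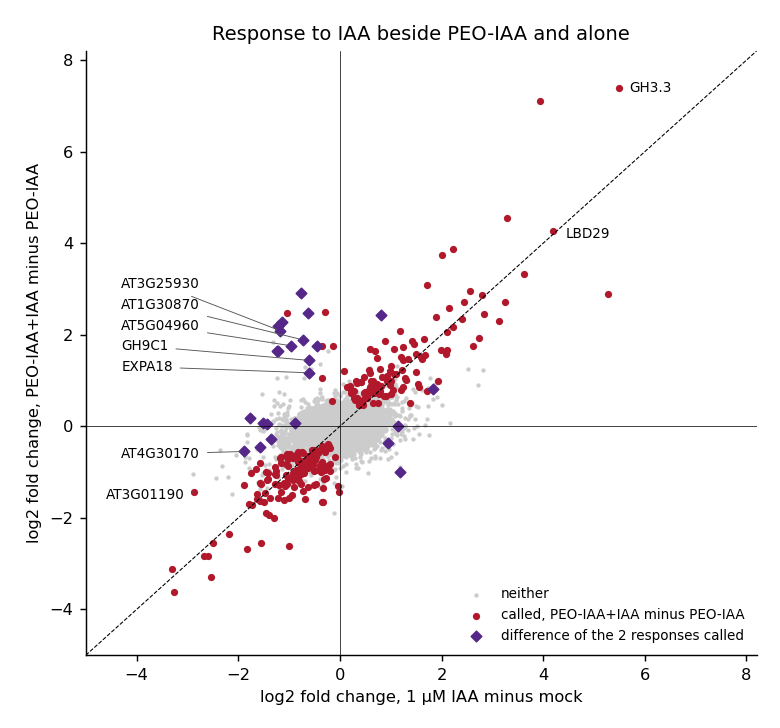
Log2 fold change of PEO-IAA+IAA over PEO-IAA (vertical axis) against that of 1 µM IAA over mock (horizontal axis) for all 15922 tested probe sets; red points are called in the comparison on the vertical axis and purple diamonds are the 24 whose 2 responses differed. Most diamonds lie above 0 beside PEO-IAA and below 0 with IAA alone, as AT3G25930 does, while GH3.3 and LBD29 lie in the upper right.

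Of the 24, 8 named 1 gene, and all 8 had the higher value beside PEO-IAA. Differences were 3.27 ± 0.40 for AT3G25930 (adjusted p = 0.00128), 2.72 ± 0.39 for AT5G04960 (0.00567) and 2.62 ± 0.31 for AT1G30870 (0.00128). The difference was 2.04 ± 0.39 for GH9C1, a glycosyl hydrolase (0.05, just under the threshold before rounding), and 1.78 ± 0.29 for EXPA18 (0.0193). It was 1.32 ± 0.16 for AT4G30170 (0.00128), 1.11 ± 0.18 for AT4G11290 (0.0178) and 1.06 ± 0.18 for AT2G41800 (0.0316). These genes fell into 2 kinds by their signals.

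In the first kind the PEO-IAA arrays were low and IAA brought the signal up beside PEO-IAA but not alone. AT3G25930 had signals of 306, 394 and 250 in PEO-IAA+IAA arrays, against 63.3, 88.4 and 54.3 in PEO-IAA arrays. It had 275, 122 and 118 with 1 µM IAA alone, against 287, 451 and 390 in mock. The log2 fold change was 2.09 ± 0.28 beside PEO-IAA and -1.18 ± 0.28 with IAA alone, both called. AT1G30870 had signals of 463, 401 and 267 in PEO-IAA+IAA arrays, against 174, 78.8 and 58 in PEO-IAA arrays. With 1 µM IAA alone it had 352, 309 and 202, against 635, 505 and 319 in mock, so those groups overlapped. It rose by 1.89 ± 0.22 beside PEO-IAA (adjusted p = 0.000114) and was at -0.73 ± 0.22 with IAA alone (0.06). AT5G04960 rose by 1.76 ± 0.28 beside PEO-IAA, GH9C1 by 1.44 ± 0.27 and EXPA18 by 1.17 ± 0.21, while with IAA alone their values were -0.96, -0.60 and -0.61 and did not pass. Without the third IAA array GH9C1 was called lower with IAA alone (-0.95, adjusted p = 0.0207), while AT5G04960 (0.0737) and EXPA18 (0.055) still missed the threshold. The rise of GH9C1 was no longer called without PEO-IAA+IAA replicate 1 (adjusted p = 0.0604) or 2 (0.0602) or PEO-IAA replicate 3 (0.0565). In PEO-IAA without IAA all 5 of these genes were called below mock, at log2 fold changes of -2.62 to -1.71.

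In the second kind the fall with IAA was smaller beside PEO-IAA than alone. AT4G30170 had signals of 1479.3, 1454.6 and 1325.1 in PEO-IAA+IAA arrays, against 2147.9, 2309.2 and 1818.1 in PEO-IAA arrays. With 1 µM IAA alone it had 671, 555 and 554, against 2547.9, 2129.6 and 1932.2 in mock. PEO-IAA alone left it near mock, and the log2 fold change was -0.55 ± 0.11 beside PEO-IAA and -1.88 ± 0.11 with IAA alone, with no overlap between the groups of either. AT4G11290 had a log2 fold change of -0.46 ± 0.13 beside PEO-IAA, which did not pass (adjusted p = 0.0986), and -1.58 ± 0.13 with IAA alone. AT3G01190, the faller described above, had -1.43 beside PEO-IAA and -2.87 with IAA alone. Its difference of 1.45 ± 0.46 was not called (adjusted p = 0.295), but without the third IAA array, whose signal of 296 was above the 131 and 97.3 of the others, it was 2.09 (0.000128). AT2G41800 was called below mock with each treatment, with log2 fold changes of -1.25 in PEO-IAA+IAA, -0.97 in PEO-IAA and -1.35 with IAA alone, and was at -0.28 in PEO-IAA+IAA against PEO-IAA.

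**Figure D5:**
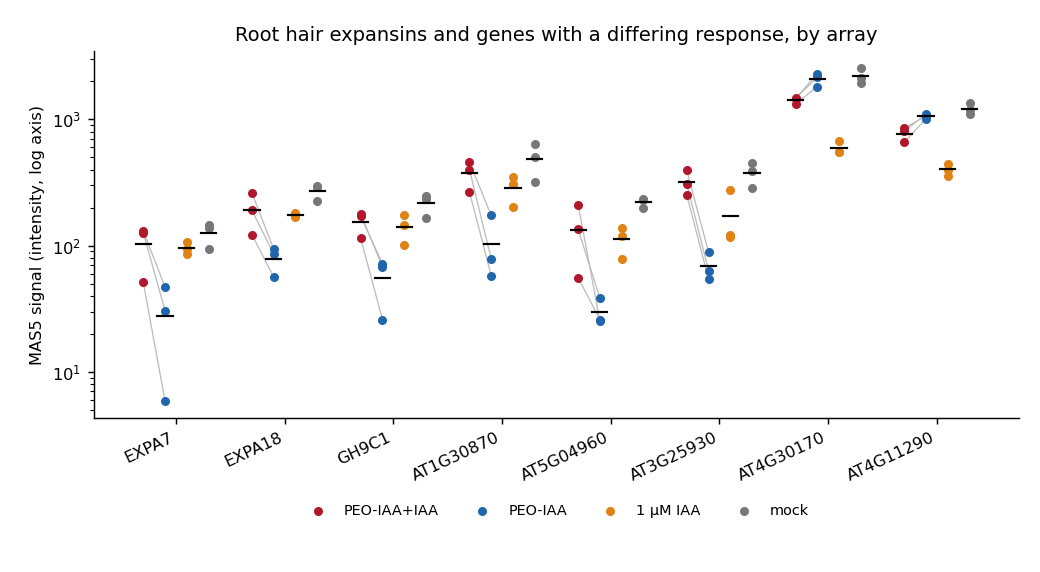
MAS5 signal (intensity, log axis) by array for EXPA7 and for 7 genes whose response to IAA differed beside PEO-IAA and alone, in PEO-IAA+IAA (red), PEO-IAA (blue), 1 µM IAA (orange) and mock (grey); horizontal bars are means of 3 arrays and thin lines join the arrays of 1 replicate number. From EXPA7 to AT3G25930 the PEO-IAA arrays are lowest and the mock means highest, while AT4G30170 and AT4G11290 are lowest with 1 µM IAA.

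These calls varied in how they held. AT3G25930, AT1G30870 and AT4G30170 differed under every alternative run, and AT5G04960 missed once, with only the 15 arrays of replicates 1 to 3 (adjusted p = 0.0581). EXPA18 lost its call without any of 7 single arrays, which were PEO-IAA+IAA replicate 1 or 2, PEO-IAA replicate 1 or 3 and mock replicate 1, 2 or 3 (adjusted p up to 0.0952), and with only the 15 arrays (0.153). GH9C1 (up to 0.187), AT2G41800 (up to 0.132) and AT4G11290 (up to 0.0885) lost theirs without 10, 6 and 6 of the 12 single arrays. With only the 15 arrays all 3 missed the threshold (adjusted p = 0.242 for GH9C1, 0.165 for AT2G41800 and 0.0895 for AT4G11290). With the pairing ignored AT2G41800 (0.718) and AT4G11290 (0.0504) missed it, and GH9C1 also did with the pseudocount divided by 4 (0.0553), no filter (0.074) or an untrended prior (0.0582). The differences of GH9C1 stayed between 1.67 and 2.25 when any 1 of the PEO-IAA+IAA or PEO-IAA arrays was left out.

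PPBo lowers IAA synthesis and leaves the receptors free, and IAA added beside it gave a second response without shared arrays, with 2 arrays a group. In that comparison 130 probe sets were called (0.816%), 84 higher (0.528%) and 46 lower (0.289%). Leaving the third IAA array out of the shared fit gave 288, 154 higher and 134 lower. Of the 130 called higher beside PEO-IAA, 59 were also called higher beside PPBo (45.4% of the 130, and 70.2% of the 84). Of the 145 called lower, 24 were also called lower (16.6% of the 145, and 52.2% of the 46), and 1 was called in the other direction. Without the third IAA array the overlaps were 76 higher (58.5% of the 130, and 49.4% of the 154) and 44 lower (30.3% of the 145, and 32.8% of the 134). The same sign was found for 115 of the 130 and 141 of the 145, against 58.3% of all tested. The Pearson correlation over all tested probe sets was 0.54. The PPBo and PPBo+IAA arrays were replicates 4 and 5, and the PEO-IAA and PEO-IAA+IAA arrays replicates 1 to 3. Inhibitor and replicate set thus cannot be told apart where the 2 responses differed.

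For GH3.3 the log2 fold change beside PPBo was 8.80, with signals of 9331.7 and 7248.3 in PPBo+IAA arrays and 10.9 and 10.9 in PPBo arrays. PPBo thus left GH3.3 near the floor, where the size of the change depends on the value added before taking logs. The difference of the responses was -1.41, with an adjusted p of 1. For HAT2 the response beside PPBo was 1.99 and the difference 0.35 (adjusted p = 1). Only 3 probe sets differed between the responses (0.0188%), of which 1 named a gene. That gene, AT1G30870, had signals of 341 and 427 in PPBo+IAA arrays and 560 and 482 in PPBo arrays, so it did not share the low level of the PEO-IAA arrays. Its difference was 2.33 (adjusted p = 0.0239), and it lost the call with the pairing ignored (0.224) and without any 1 of 8 of the 10 arrays, PEO-IAA+IAA replicate 3 and PEO-IAA replicate 1 being the exceptions (adjusted p up to 0.565).

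Of the 30 genes named by size, 19 kept their call whichever of the 6 arrays was left out, 9 of the 15 that rose and 10 of the 15 that fell. In all alternatives run 14 kept it, 8 that rose and 6 that fell. GH3.3, GH3.5, HAT2, AT5G62280, AT5G12050, AT1G62770, AT3G50340 and AT1G03820 were the 8 that rose, and AT5G60520, AT4G11190, AT3G45680, AT5G59490, AT4G30450 and AT4G30460 the 6 that fell. IAA29 and LBD29, named from the lists, also kept theirs in every alternative in which they were tested. IAA29 was too dim to be tested with the filter at the median. With the 6 arrays alone and the pairing ignored, 12 of the 30 lost their call, BCAT4 (adjusted p = 0.153) among them.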

How the data were processed

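The deposited values are probe set signals in linear intensity units, made with MAS5 (no version given) per the submitters' processing notes. The 2% trimmed mean of each array lay between 500.04 and 500.05, so no further scaling was applied. Detection calls were not used here, so dim signals are the least certain. The 64 control probe sets among 22810 were left out. Signals were transformed as log2(signal + 7.56), 7.56 being the 10th percentile, a scale that understates the change of dim genes. Tests covered the 15922 probe sets with a mean signal over 61.8, the 30th percentile.

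A linear model with group (9 levels) and replicate number as a block was fitted to all 23 arrays with limma 3.58.1 in R 4.3.3, using a trended variance prior, and had 11 residual degrees of freedom. Pairing rests on the labels' numbers. Deviations from the group means correlated at 0.557, 0.359 and 0.444 between PEO-IAA+IAA and PEO-IAA arrays of the same number, and at -0.439 to 0.035 between others. Deviations within a group cancel out, so positive values at the same number make the others negative on average. The contrast between both ranges is thus partly built in. Differences of responses were contrasts of the same fit. P-values were adjusted by Benjamini-Hochberg over all tested probe sets, and a probe set was called below 0.05. The fit was tested on simulated data. The number of arrays limits the precision.

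Names came from the platform annotation through the TAIR10.1 gene table: 13513 probe sets had 1 gene, 503 several, and 8794 were unnamed here. The rule named the 15 called genes that rose most and the 15 that fell most. Their groups could not overlap, and the brighter group had to average more than the median signal tested (380). For each difference of responses it named up to 4 called genes at either end, and from each gene list up to 6 called members. The brightest probe set stood for a gene. The comparison and the lists were chosen with earlier results of these data known. Alternatives were no block, other sets of arrays, array weights, pseudocounts, filters, quantile normalization, an untrended prior and leaving out single arrays. Promoter motifs were not analysed here.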

Additional observations from a re-analysis of the deposited data

Results flagged for a closer look

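For 8 named genes the response to IAA beside PEO-IAA differed from that to IAA alone by a test of the difference itself. On the log2 scale the response was higher beside PEO-IAA by 3.27 for AT3G25930, 2.72 for AT5G04960, 2.62 for AT1G30870, 2.04 for GH9C1, 1.78 for EXPA18, 1.32 for AT4G30170, 1.11 for AT4G11290 and 1.06 for AT2G41800. For AT1G30870 the response beside PEO-IAA also differed from that beside PPBo, by 2.33, where inhibitor and replicate set cannot be told apart. The third 1 µM IAA array, which stood apart in RNA integrity, entered all 8 differences from IAA alone. With 3 or 2 arrays in a group, no test for outlying values was made, but single arrays were left out in turn. GH9C1, EXPA18, AT2G41800 and AT4G11290 then lost their call without some of them. So did AT1G30870 in its difference from PPBo.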

How the results depend on the processing

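Detection calls were not used, so how far the dimmest signals lie above background is not known, and groups of 3 arrays limit the precision. None of the 52 called genes listed here changed its sign under any alternative run, while 15 of the 46 listed genes that were not called did, all with an adjusted p of 1. The 275 calls (130 higher, 145 lower) became 215 without the replicate block in the fit of 23 arrays (108 higher, 107 lower), of which 211 were shared. The 6 arrays alone gave 487 calls with the replicate block (259 shared) and 97 with no replicate block (89 shared, 58 higher and 39 lower), so among the 6 arrays the count depended on the pairing. In the last setting 29 of the 52 called genes lost their call, against 5 without the block among 23 arrays. The 15 arrays of replicates 1 to 3 gave 164, array quality weights 628, and leaving out the third 1 µM IAA array 552, with all 275 calls among the last 2. The other 6 alternatives gave 190 to 285. Leaving out a single array of the comparison gave 145 to 204 calls: 147, 178 and 198 without PEO-IAA+IAA replicate 1, 2 and 3, and 145, 148 and 204 without PEO-IAA replicate 1, 2 and 3. More were higher than lower without PEO-IAA+IAA replicate 3 (109 and 89), PEO-IAA replicate 1 (77 and 68) and PEO-IAA replicate 2 (76 and 72). Over these 6 arrays and the third 1 µM IAA array, left out in turn, the range was thus 145 to 552. The other fitted arrays were not left out for this count.

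The 24 differences from IAA alone became 17 without the replicate block, 8 with the 15 arrays, 52 with array weights, 15 with the filter at the median, and 11 to 228 when single arrays were left out. The count was 228, 183 and 46 without 1 µM IAA replicate 3, 2 and 1, 11 without PEO-IAA+IAA replicate 1 or 2, and 13 without PEO-IAA replicate 1 or any mock replicate. The 228 were 128 higher and 100 lower beside PEO-IAA, and the 183 were 111 higher and 72 lower. The 3 differences from PPBo became 2 without the replicate block, 28 with array weights, and 0 to 21 when single arrays were left out. The highest counts were 21 without 1 µM IAA replicate 3 and 12 without PEO-IAA+IAA replicate 3. Without PPBo+IAA replicate 4 or PPBo replicate 4, limma called 0, with 399 and 339 at an unadjusted p below 0.05. Fewer arrays were fitted where counts fell with arrays left out. Elsewhere the cause was not tested.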

Other observations

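Further genes with a symbol were called outside the naming rule and are given here because their values had been seen. CLE44, which encodes a peptide of vascular development, had signals of 235, 304 and 269 in PEO-IAA+IAA arrays and 158, 131 and 108 in PEO-IAA arrays, and rose by 0.99 ± 0.21 (limma adjusted p = 0.0172). BAT1, an acyltransferase related to brassinosteroids, had signals of 280, 272 and 201 in PEO-IAA+IAA arrays and 156, 132 and 72 in PEO-IAA arrays, and rose by 1.07 ± 0.25 (adjusted p = 0.0354). BRH1, a brassinosteroid-responsive RING-H2 protein, rose by 0.71 ± 0.12 (0.00281), and ATIM, the plant TIMELESS protein, by 0.85 ± 0.15 (0.00657). SWEET17, a fructose carrier of the vacuole, fell by 0.59 (SE 0.11, adjusted p = 0.00779), and MSRB9, a methionine sulfoxide reductase, fell by 0.77 (SE 0.18, adjusted p = 0.0434). In each of these 6 genes the groups did not overlap. Only BRH1 kept its call whichever of the 6 arrays was left out. The others reached an adjusted p of 0.055 (ATIM, without PEO-IAA+IAA replicate 1), 0.0832 (SWEET17, lost without PEO-IAA+IAA replicate 2 or PEO-IAA replicate 1) and 0.128 (CLE44), 0.211 (BAT1) and 0.339 (MSRB9). CLE44 and BAT1 lost theirs without PEO-IAA+IAA replicate 1 or 2 or PEO-IAA replicate 2 or 3, and MSRB9 without any array but PEO-IAA+IAA replicate 3.

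Among dim genes with a locus code only, AT4G25250 fell more than any gene named by size. Its signals were 29.5, 28.4 and 9.12 in PEO-IAA+IAA arrays, against 345, 375 and 150 in PEO-IAA arrays, a log2 fold change of -3.30 ± 0.42 (adjusted p = 0.000354). AT1G64405 rose by 2.05 ± 0.30 (adjusted p = 0.00107), with 258, 224 and 125 in PEO-IAA+IAA arrays and 70.3, 18.2 and 49.7 in PEO-IAA arrays.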
